A study of Saccharomyces cerevisiae with 6 samples.

Results

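At 65 spots of a yeast whole-ORF macroarray, total RNAP II occupancy was lower 30 min after release from a G1 arrest than at the arrest, while the run-on signal of active RNAP II differed by little between the same times. These spots were chosen from the measured values. A spot entered when its mean RNAp ChIP value at 30 min was below that at 0 min by at least 0.9 on the log2 scale and its mean run-on value moved by no more than 0.3 in either direction. The array held 6144 spots, 5642 of them could be read in both assays, and 65 of these met the rule. The choice used the change from 0 to 30 min in both assays, so that change is described here and no conclusion is drawn from testing it. The values at 60 min, which the choice did not use, are the main subject.

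Genomic run-on (GRO) and RNAp ChIP read different states of the same enzyme. In run-on, permeabilized cells are given labelled UTP, which only polymerases that can still elongate add to their transcripts. ChIP recovers polymerase crosslinked to a gene whether it elongates, is paused or has backtracked, that is, has slid back on its template so that the 3′ end of the transcript leaves the active site, a state from which TFIIS helps it escape by stimulating cleavage of the RNA. A gene body can therefore differ in bound polymerase without an equal difference in run-on, and the reverse.

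All cells were S. cerevisiae BY4741, a haploid wild-type laboratory strain, transformed with the plasmid pRS316, and all had been arrested in G1 with the mating pheromone alpha factor and washed into fresh medium. Samples were taken at 0 min (still arrested), 30 min and 60 min, with 3 replicates of each assay at each time, so the data hold 6 groups and no unsynchronized control. GRO was expressed as log2 of run-on over genomic DNA signal from a single nylon filter, and RNAp ChIP as the log2 ratio of immunoprecipitated (IP) to whole-cell-extract (WCE) DNA. Each hybridization was centred on its median, so 0 is the median spot and every value is relative to the other spots, not an absolute amount. The study speaks of 3 experiments and the labels of replicates. Neither says that each hybridization came from a culture of its own, so the spread between replicates may be partly technical.

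The median spot intensity of a hybridization was between 35.7 and 197 for run-on RNA, 94.2 and 556 for IP, 99.6 and 616 for WCE, and 48.3 and 166 for genomic DNA, and 85 to 362 spots per hybridization were at 0. The RNAp ChIP samples of 30 and 60 min carry exchanged times in their titles and their descriptions. The descriptions were followed. With the titles followed, the same rule chose 34 spots, of which 15 were among the 65, so each statement on 30 and 60 min below rests on the descriptions. The description of the GRO sample at 30 min names replicates 1 and 2 only, and 3 hybridizations were present and used. The files used here name each spot by its place on the array and not by its gene, so no gene name, function or sequence is given for a spot, and the cell cycle stage was not checked against marker genes.

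The 65 spots lay in one corner of the joint distribution of the changes from 0 to 30 min. Their RNAp ChIP change ran from -2.61 to -0.90 with a median of -1.11 and quartiles of -1.45 and -0.96. Their run-on change had a median of -0.03, by construction within 0.3 of zero. Over all 5642 spots the medians of these changes were 0.01 and -0.01. Just inside the occupancy bound were spots at -0.904, -0.903 and -0.902, and just outside it, with flat run-on, were spots at -0.8998, -0.889 and -0.888. Just inside the run-on bound were spots 0.294, 0.295 and 0.295 away from no change, and just outside it, below the occupancy bound, were spots at -0.305, -0.312 and -0.316.

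**Figure D1:**
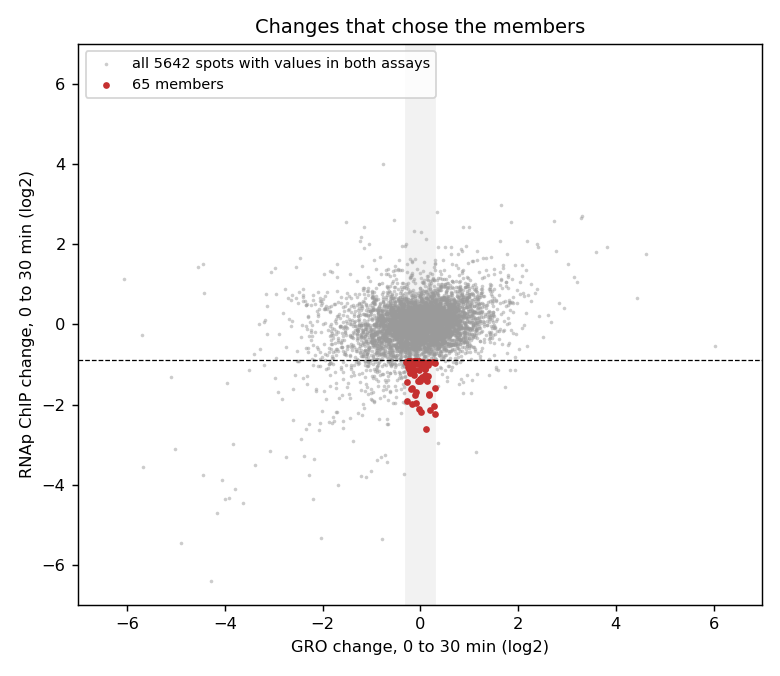
Change in run-on from 0 to 30 min (horizontal axis, log2) against the change in RNAp ChIP over the same interval (vertical axis, log2), 1 point per spot. Grey points are all 5642 spots read in both assays, the grey band marks run-on within 0.3 of no change, the dashed line marks -0.9, and the 65 chosen spots (red) lie where the band passes below the line.

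Flat run-on was less frequent among the spots with lower occupancy than among all spots. Of the 330 spots whose RNAp ChIP value was lower by at least 0.9 at 30 min, 140 (42.4%) were lower by at least 0.9 in run-on too, against 11.9% of all spots. A further 91 (27.6%) lay between -0.9 and -0.3 in run-on, against 21.4% of all spots. The 65 spots with flat run-on made up 19.7% of these 330, where 35.9% of all spots had flat run-on, and the other 34 (10.3%) were higher in run-on by more than 0.3, against 30.8% of all spots. The mirror image, flat run-on with occupancy higher by at least 0.9, was met by 57 spots.

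In single hybridizations the chosen spots stood above the median spot in RNAp ChIP at 0 min and below it at 30 min. Their median RNAp ChIP value was 0.56, 0.55 and 0.61 in replicates 1 to 3 at 0 min, -0.60, -0.32 and -0.71 at 30 min, and -0.01, 0.01 and 0.08 at 60 min. The medians of the 3 times did not overlap, which for 0 and 30 min follows the choice. Their median run-on value was -0.20, -0.09 and 0.03 at 0 min, -0.21, -0.06 and -0.13 at 30 min, and -0.04, -0.03 and -0.15 at 60 min. The run-on medians of the 3 times overlapped. Between the assays, run-on minus RNAp ChIP had a median over the 65 spots of -0.73 (0 min), 0.38 (30 min) and -0.15 (60 min), and over all spots of -0.02, -0.0012 and -0.06. The choice itself required this difference to be higher at 30 than at 0 min at each of the 65 spots. In a bulk culture, less polymerase per cell and fewer cells carrying it cannot be told apart.

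**Figure D2:**
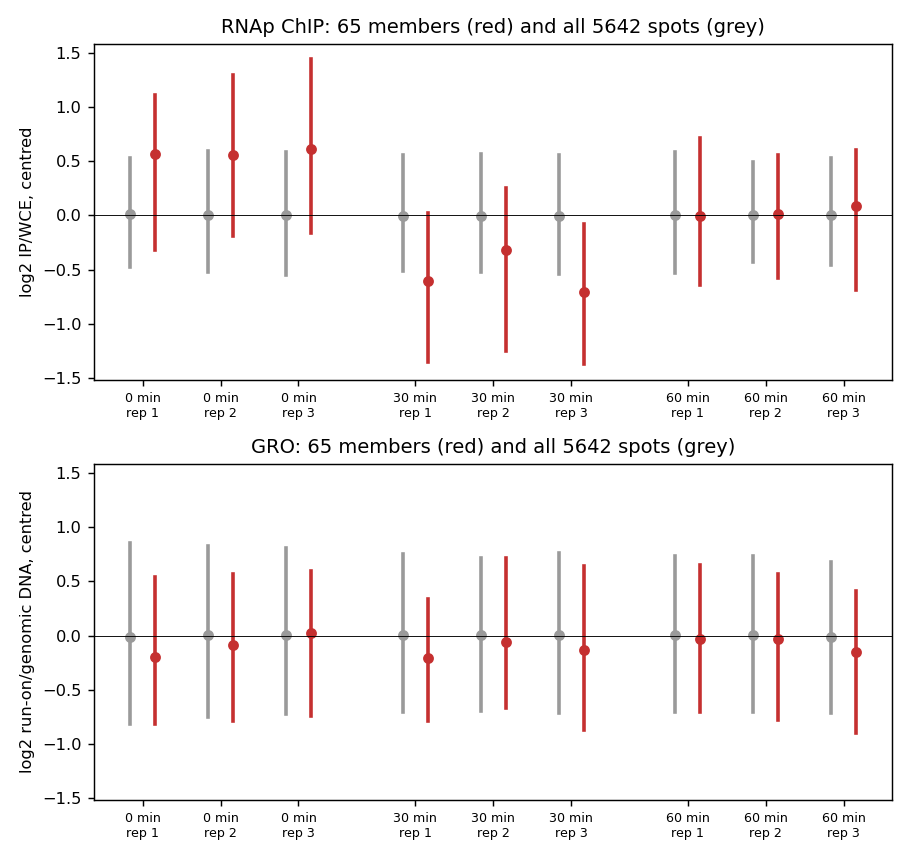
Median (dot) and middle 50% (bar) of the centred log2 ratio over the 65 chosen spots (red) and over all spots (grey) in each of the 18 hybridization ratios, by assay, time and replicate. The RNAp ChIP medians of the chosen spots were 0.55 to 0.61 at 0 min, -0.71 to -0.32 at 30 min and near 0 at 60 min, and their run-on medians stayed between -0.21 and 0.03 at all times.

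The spots were not uniform in their replicates. Within a replicate number, the 30 min value of RNAp ChIP was below the 0 min value at 59 of 63 spots in replicate 1, 58 of 62 in replicate 2 and 62 of 62 in replicate 3, with medians of -1.11, -1.08 and -1.45. Of all spots with both values, 47.3%, 49.1% and 50.2% were lower, and the choice had used each replicate. All replicates at 30 min were below all replicates at 0 min at 46 of the 65, a comparison that the choice used and in which 14.1% of all spots with 3 values at both times did the same. The limma fit of 30 against 0 min called 22 of the 65 lower at an adjusted p below 0.05, beside 3.59% of all spots. The choice had already required a lower mean at 30 min on this same contrast. This count therefore cannot test the change, and no conclusion is drawn from it.

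Run-on was flat in the mean more than in each replicate. The change from 0 to 30 min lay within 0.3 at 37 of 64 spots in replicate 1, whose hybridizations at both times used the same filter and so the same genomic DNA denominator, at 28 of 59 in replicate 2 and at 31 of 63 in replicate 3. The 95% interval of a spot's run-on change reached 0.75 to either side at the median spot and 0.447 to 2.75 over the 65. At 26 of the 65 this interval reached down to -0.9, the bound used for occupancy, and at 33 it stayed within 0.9 on both sides of zero. With same-numbered replicates of these times as pairs, the median interval reached 0.674 to either side, and 25 and 35 spots met these conditions. For the spots that reached -0.9, a run-on difference as large as the occupancy bound thus lay inside the error at this number of arrays, and flat means only that the mean moved little.

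The choice was repeated on 2 replicates at a time and read in the replicate left out. With replicate 1 left out, 82 spots were chosen, 35 of them among the 65, and their median RNAp ChIP change was -1.18 in the replicates used and -0.74 in the one left out, where 65 of 82 were lower. With replicate 2 left out, 91 were chosen, 29 of them among the 65, and the medians were -1.13 and -0.19, with 54 of 89 lower in the replicate left out. With replicate 3 left out, 47 were chosen, 21 of them among the 65, and the medians were -1.13 and -0.89, with 39 of 46 lower. Lower in the left-out replicate were 79.3%, 60.7% and 84.8%, in this order, against 47.3%, 49.1% and 50.2% of all spots. The size of the occupancy change was thus smaller outside the replicates that chose the spots in each turn, and smallest in replicate 2.

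A change of -0.9 or beyond was met in the left-out replicate by 39.0%, 18% and 50.0% of these spots, against 8.38%, 8.92% and 11.7% of all spots. The run-on change in the left-out replicate had medians of -0.21, -0.0032 and -0.06. Within 0.3 were 41.5%, 43.2% and 30.4% of the chosen spots, against 36.6%, 28.0% and 30.0% of all spots. With replicate 1 or 3 left out, flat run-on was thus met again at a share near that of all spots. For comparison, spots chosen in the same way as lower in both assays kept medians of -1.23, -1.22 and -1.40 in RNAp ChIP and -1.24, -1.32 and -1.57 in run-on in the left-out replicate. The mirror spots had RNAp ChIP medians of 0.62, 0.27 and 0.59 there. The 3 turns share replicates, so these values are given without a test.

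**Figure D3:**
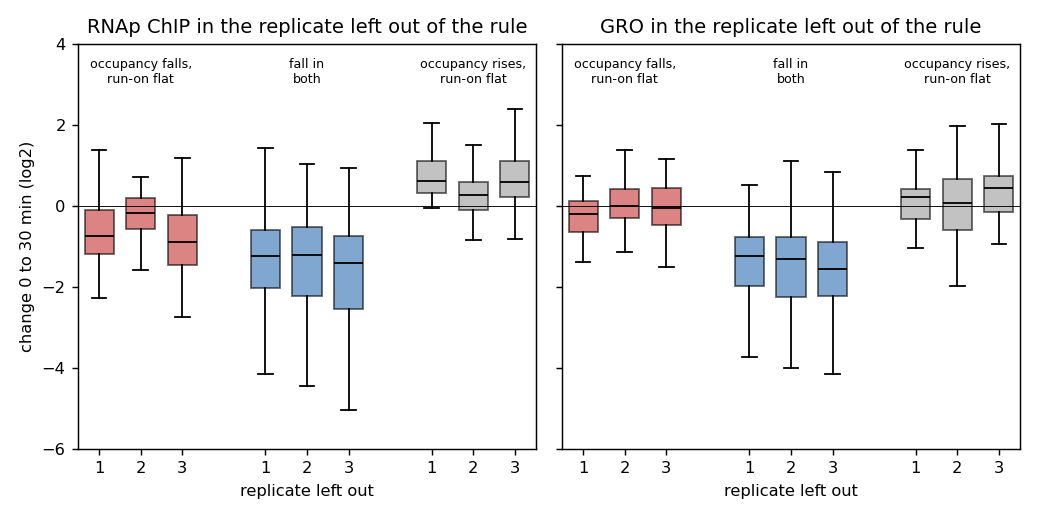
Change from 0 to 30 min (log2) in the replicate left out of the choice, in RNAp ChIP and run-on, for spots chosen on the other replicates as lower in occupancy with flat run-on, lower in both assays, or higher in occupancy with flat run-on. Boxes give the quartiles with the median as a line, and whiskers reach the last value within 1.5 times the interquartile range. The first choice had left-out RNAp ChIP medians of -0.74, -0.19 and -0.89 and run-on medians of -0.21, -0.0032 and -0.06.

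At 60 min the RNAp ChIP values of the 65 spots lay mostly between those of the earlier times. Their median started at 0.59 in the arrested cells, stood at -0.65 after 30 min and came to 0.04 after 60 min. Relative to 0 min, the median at 60 min was -0.43 with quartiles of -0.86 and -0.07, and relative to 30 min it was 0.61, while both changes had a median of 0.03 over all spots. The value at 60 min lay between those at 30 and 0 min, with 30 min the lower, at 41 of the 65 (63.1%), against 20.6% of all spots and 72.1% of the 140 spots lower in both assays. It was at or above that of 0 min at 14 (21.5%, against 52.9% of all spots and 14.3% of those lower in both) and at or below that of 30 min at 10 (15.4%, against 47.3% and 13.6%). It was nearer the 0 min than the 30 min value at 42 of the 65 (64.6%), against 53.6% of all spots and 45.7% of those lower in both assays. The choice had set the 0 and 30 min values at least 0.9 apart. That raised the share lying between them and lowered the shares outside them, relative to all spots.

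The spots differed in how far occupancy at 60 min lay from that at 0 min. RNAp ChIP at 60 min was within 0.3 of its value at 0 min at 18 of the 65 (27.7%), against 58.3% of all spots and 21.4% of those lower in both assays. It was still lower than at 0 min by at least 0.9 at 15 (23.1%), against 3.17% of all spots and 45.7% of those lower in both assays. These differences share the 0 or the 30 min hybridizations with the choice, so they are given as values and were not tested.

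**Figure D4:**
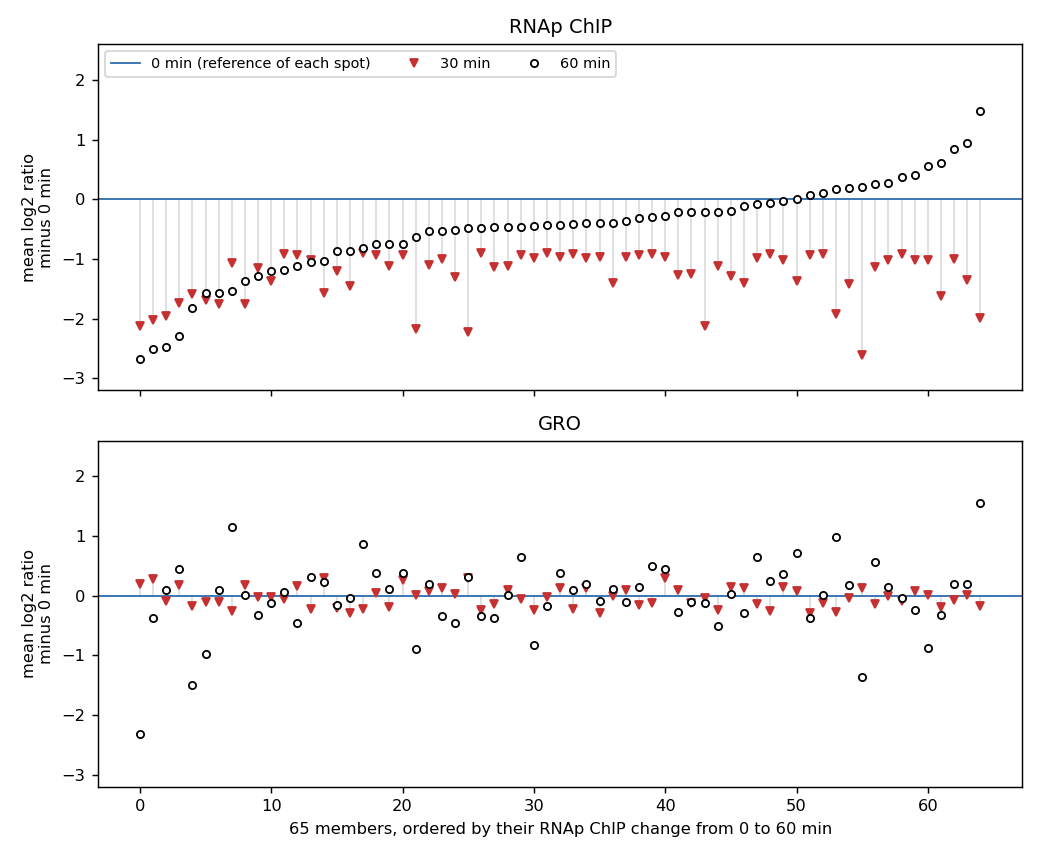
RNAp ChIP of the 65 chosen spots relative to 0 min (log2, vertical axis), at 30 min (red triangles) and at 60 min (open circles), with the spots ordered along the horizontal axis by their value at 60 min. The 30 min values lie at or below -0.90 because the spots were chosen so, and the 60 min values run from -2.68 to 1.48, with 15 spots at or below -0.9 and 14 at or above 0. The lower panel gives run-on in the same order.

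Run-on at 60 min differed little from the earlier times in the median spot, with changes of 0.03 from 0 min and 0.06 from 30 min. It was within 0.3 of the 0 min value at 31 of the 65 (47.7%), against 40.9% of all spots. It was within 0.3 of the 30 min value at 36 (55.4%), against 45.8%. At 25 spots (38.5%) it was within 0.3 of both, against 21.1% of all spots, a share that the choice raised because it had already placed the 0 and 30 min values close together. Run-on at 60 min exceeded both earlier values by more than 0.3 at 11 spots (16.9%, against 10.7% of all spots) and was below both by more than 0.3 at 12 (18.5%, against 13.2%). Both shares are also bound up with the choice, which had drawn the earlier values together.

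The contrast of 60 min with the mean of 0 and 30 min does not use the difference between 0 and 30 min, and it is independent of the choice where the times vary equally between replicates. That held in part. The median replicate SD of RNAp ChIP over all spots, in the order of the times, was 0.31, 0.20 and 0.25, and that of run-on 0.39, 0.34 and 0.32. Over the 65 spots these were 0.46, 0.32 and 0.26 in RNAp ChIP and 0.39, 0.32 and 0.30 in run-on. In RNAp ChIP the contrast was above 0 at 42 spots and below 0 at 23, with a median of 0.10 against 0.02 over all spots. Its median size without the sign was 0.47 against 0.21 over all spots, 0.50 over the mirror spots and 0.58 over the spots lower in both assays. A size above that of all spots was thus shared with these groups. Its median standard error was 0.277 against 0.209 over all spots. In run-on it was above 0 at 36 and below 0 at 29, with a median of 0.08 against -0.03, a median size of 0.28 against 0.29, and a median standard error of 0.286 against 0.280. The run-on median changed sign with a mean denominator, to -0.071. With 1 replicate left out it was 0.0016 without replicate 2 at 0 min, 0.015 and 0.019 without replicates 1 and 3 at 30 min, and 0.011, 0.047 and 0.036 without replicates 1, 2 and 3 at 60 min, so no direction is read from it.

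By limma with Benjamini-Hochberg adjustment over all spots, 3 of the 65 (4.62%) differed in RNAp ChIP between 60 min and the mean of the earlier times at an adjusted p below 0.05, where 1.54% of all 5829 spots tested did. Of these, 2 were higher, beside 0.892% of all spots, and 1 was lower, beside 0.652%. At an unadjusted p below 0.05 there were 19 of 65 (29.2%), 12 higher and 7 lower, against 13.7% of all spots. In run-on limma called 0 of the 65, where 0.281% of 5699 spots were called, with a smallest adjusted p of 0.134, and at an unadjusted p below 0.05 there were 12 (18.5%), 8 higher and 4 lower, against 13.0% of all spots. Some run-on hybridizations share a filter, and with the filter as a random block limma called 3 of the 65 in run-on, 1 higher and 2 lower, and 4.28% of all spots. The difference between the assays in this contrast, on z-scores within each hybridization, was called by limma at 0 of the 65, where 0.0709% of 5642 spots were called, with 15 at an unadjusted p below 0.05 against 11.5% of all spots. The RNAp ChIP calls were few and changed with the libraries used: none was left without replicate 2 at 0 min, without replicate 3 at 30 min or without any 1 of the replicates at 60 min.

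The spots with the lowest RNAp ChIP at 60 min relative to 0 min, among the 44 with all 18 ratios and no overlap between 0 and 30 min, were R14 - C4 : 7 and R14 - C2 : 12. Spot IDs give the row, the column and the position within a block of the array. R14 - C4 : 7 had the highest mean occupancy of the 65 at 0 min, with RNAp ChIP values of 2.64, 3.15 and 3.40 in replicates 1 to 3. At 30 min it had 0.63, 1.57 and 0.90, and at 60 min 0.91, 0.55 and 0.21. The replicates at 60 min all lay below those at 0 min, which the way of picking the spot favoured, and overlapped with those at 30 min. Its run-on values were -0.41, 0.37 and 0.99 at 0 min, 0.33, 0.44 and 0.99 at 30 min, and 0.35, -0.11 and -0.42 at 60 min, with overlap between all times. This was the spot called lower: its RNAp ChIP at 60 min minus the mean of the earlier times was -1.49 (SE 0.27, limma adjusted p = 0.0317), and over 15 alternatives the difference ran from -1.67 to -1.32 and the adjusted p from 0.0120 to 0.242, with the call kept in 6. The run-on difference was -0.51 (SE 0.33, limma adjusted p = 0.558) and was not called. With the filter as a random block it was -1.02 (SE 0.27, limma adjusted p = 0.0716), also not called.

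Divided by the median of its hybridization, the IP intensity of R14 - C4 : 7 in replicates 1 to 3 came to 19.9, 21.7 and 27.6 in the arrested cells, then 6.66, 19.7 and 9.22 after 30 min. Its WCE intensity came to 3.204, 2.36 and 2.54, then 4.25, 6.37 and 4.60. On this scale every IP replicate at 30 min lay below those at 0 min, by little in replicate 2, and every WCE replicate at 30 min lay above those at 0 min.

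R14 - C2 : 12 had high run-on throughout, with 1.90, 2.03 and 2.59 at 0 min, 1.68, 2.12 and 2.42 at 30 min and 3.12, 1.81 and 1.89 at 60 min. Its RNAp ChIP values were 1.12, 0.59 and 1.59 at 0 min, -0.77, -0.64 and -1.16 at 30 min, and -3.15, -0.31 and -0.65 at 60 min. Replicate 1 at 60 min, with an IP intensity of 0.043 of its hybridization's median against 0.48 and 0.47 in the others, was far below the others at that time. Replicates 2 and 3 at 60 min overlapped with the 30 min values and lay below those of 0 min, which the way of picking the spot favoured.

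Among the same 44, the spots with the largest difference between 60 and 30 min in RNAp ChIP were R2 - C16 : 1 and R12 - C5 : 1. R12 - C5 : 1 had RNAp ChIP values of 1.67, 1.68 and 2.15 at 0 min, 0.17, -0.06 and -0.35 at 30 min, and 2.32, 1.76 and 1.95 at 60 min. The 60 min values overlapped with those of 0 min, and all were above those of 30 min, a separation that the way of picking the spot favoured. Its run-on values were 0.52, 0.48 and 1.09 at 0 min, -0.30, 0.75 and 0.83 at 30 min, and 2.09, 1.54 and 1.40 at 60 min. The 3 run-on values at 60 min were above all values of the earlier times. The RNAp ChIP difference from the mean of the earlier times was 1.13 (SE 0.20, limma adjusted p = 0.0295), and over 15 alternatives it ran from 0.97 to 1.26 with an adjusted p from 0.0124 to 0.177 and the call kept in 6. The run-on difference of 1.11 (SE 0.31) had an adjusted p of 0.190 by limma and was not called, nor was it with the filter as a random block, where it was 0.89 with an adjusted p of 0.0756.

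R2 - C16 : 1 was a dim spot. Its RNAp ChIP values were -0.72, -0.82 and 0.62 at 0 min, -1.41, -1.39 and -2.99 at 30 min and 1.35, 0.28 and -0.75 at 60 min. Its IP intensity was as low as 3.25, in replicate 3 at 30 min, and its values at 0 and 60 min overlapped. Its run-on values were 0.53, 0.89 and 0.15 at 0 min, -0.01, 0.08 and 0.94 at 30 min, and 0.01, 0.34 and 0.24 at 60 min, with overlap between all times.

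The remaining spot called in RNAp ChIP, at position 1 of a block in row 2 of the array, fell outside the rule for names and was singled out after its values were seen. Its RNAp ChIP values were -1.65, -0.70 and -0.72 at 0 min, -3.87 and -2.16 at 30 min with the remaining replicate at 0 intensity in IP, and 0.15, 1.17 and 0.05 at 60 min. Its IP intensities at 30 min were 0.863 and 1.39 in the replicates that gave a value. The difference of 60 min from the mean of the earlier times was 2.48 (SE 0.46, limma adjusted p = 0.0453). It was kept in 4 of 14 alternatives, with an adjusted p from 0.0298 to 0.170, and the spot dropped out when the dimmest spots were left out. Its run-on values at 60 min, 0.73, 0.55 and 0.53, were above all values of the earlier times, whose intensities were 2.90 to 11.0. The run-on difference was 1.64 (limma adjusted p = 0.301) and was not called. With the filter as a random block it was 1.98 (limma adjusted p = 0.0370) and was called.

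The RNAp ChIP ratio has 2 measured parts, and both moved at the chosen spots. From 0 to 30 min the centred IP value had a median change of -0.82 and the centred WCE value one of 0.38, where over all spots these medians were 0.05 and 0.01. At the 140 spots lower in both assays the IP change was -1.42 and the WCE change -0.01. IP was lower and WCE higher at 45 of the 65 (69.2%), against 15.0% of all spots and 47.1% of the spots lower in both assays. Both parts were lower at 16 (24.6%), against 30.9% of all spots. At the other 4 (6.15%) IP was higher and WCE higher still, where both parts were higher at 35.4% of all spots. IP alone was lower by at least 0.9 at 30 of the 65 (46.2%), against 6.54% of all spots and 75% of those lower in both assays. The choice required the ratio of IP to WCE to be lower by at least 0.9, so it raised the shares of 69.2% and 46.2%. The spots lower in both assays met the same occupancy bound. IP moved further than WCE at 41 (63.1%), a share near that of all spots (58.5%) and below that of the spots lower in both assays (88.6%).

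By hybridization, the median centred WCE value of the chosen spots was 0.39, 0.03 and 0.17 at 0 min, 0.43, 0.38 and 0.49 at 30 min, and -0.14, 0.25 and 0.05 at 60 min. WCE is input DNA, and the 0 and 30 min replicates overlapped in it through replicate 1. The median IP value was 1.05, 0.35 and 0.35 at 0 min, 0.28, -0.10 and -0.27 at 30 min, and -0.08, 0.18 and 0.09 at 60 min. The IP medians at 30 min were all below those at 0 min. At 60 min relative to 0 min, the median change was -0.23 in IP and 0.14 in WCE. The part of the WCE change in the choice of these spots was not tested.

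**Figure D5:**
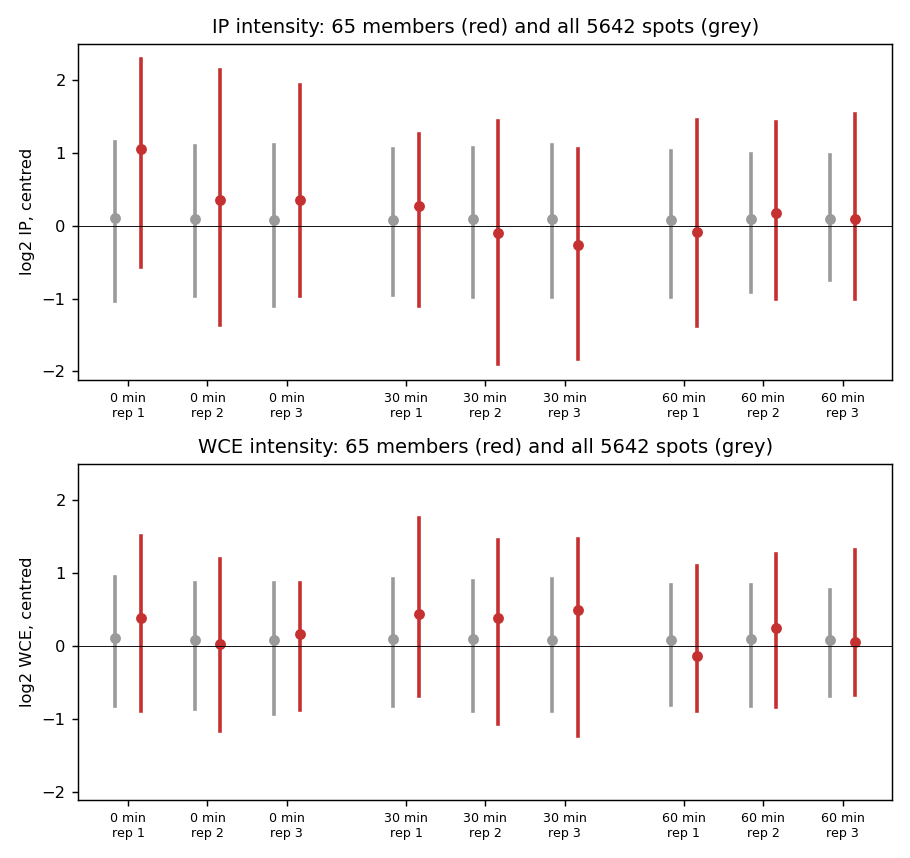
Median (dot) and middle 50% (bar) of the centred log2 intensity of the IP and of the WCE hybridizations over the 65 chosen spots (red) and all spots (grey), by time and replicate. The IP medians of the chosen spots at 30 min (-0.27 to 0.28) lie below those at 0 min (0.35 to 1.05), and their WCE medians at 30 min (0.38 to 0.49) lie above those of replicates 2 and 3 at 0 min (0.03 and 0.17) and beside that of replicate 1 (0.39).

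The share of dim spots among the chosen was slightly above that of all spots, and the share of bright spots was further above it. Of the 65, 17 (26.2%) were in the dimmest 25% by WCE or by genomic DNA signal, against 22.6% of all spots and 63.2% of the mirror spots. By WCE alone 16 (24.6%) were in the dimmest 25%, against 19.3% of all spots. All 18 ratios were present at 53 (81.5%), against 91.1% of all spots. In the brightest 25% were 27 (41.5%, against 27.0% of all spots) by WCE and 26 (40.0%, against 27.0%) by genomic DNA. By level at 60 min, a time the choice did not use, the lowest 25% of all spots held 23 of the 65 (35.4%) in RNAp ChIP and 20 (30.8%) in run-on. The highest 25% held 19 (29.2%) and 14 (21.5%). The share in the highest 25% was thus near that of all spots in both assays. Of the spots lower in both assays, 38.6% were in the lowest 25% by RNAp ChIP and 34.3% in the highest.

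Their places on the array were uneven. Each of the 384 blocks of the array holds 16 positions, and 48 of the 65 (73.8%) were at positions 1 to 8, against 51.9% of all spots, 59.3% of the spots lower in both assays and 29.8% of the mirror spots. Array columns 1 to 12 of 24 held 44 (67.7%), against 50.0% of all spots, and rows 1 to 8 of 16 held 25 (38.5%), against 50.6%. Over all spots the median RNAp ChIP change from 0 to 30 min was -0.05 at positions 1 to 8 and 0.07 at positions 9 to 16. The 65 spots lay in 52 blocks, and 24 of them shared a block with another. With the median of each position removed from every hybridization, the same rule chose 62 spots, 48 of them among the 65, and with the median of each array column removed it chose 55, 41 of them among the 65. The part of array position in the choice was not tested beyond these counts.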

How the data were processed

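Nylon filters with whole-ORF probes were hybridized with 33P-labelled material and read on a phosphorimager. The authors deposited spot intensity values from ArrayVision 7.0, with background subtracted and no scaling between hybridizations. Ligation-mediated PCR had amplified the DNA of both ChIP fractions, and this step can alter relative amounts. There were 34 hybridizations: 9 run-on, 9 IP, 9 WCE and 7 genomic DNA, and 0 value columns were left unused. The study's background cut and its scaling between time points were not applied.

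Intensities at 0 were treated as missing, log2 ratios were centred on the median of each hybridization, and means needed at least 2 replicates. Contrasts were fitted with limma 3.58.1 (R 4.3.3, lmFit and eBayes, two-sided, Benjamini-Hochberg adjustment over all spots, threshold 0.05), with the 9 ratios of an assay in one fit, or, for the difference between assays, 18 ratios as z-scores. The fits were tested on simulated data. Counts and medians were made with pandas 2.3.3 and numpy 2.4.6 under Python 3.11.15. Precision is limited by how many arrays there were.

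The members, comparison groups and tests were chosen with earlier results of these data known. The named spots were those with all 18 ratios and no overlap in RNAp ChIP between 0 and 30 min that had the lowest 60 min value relative to 0 min (2 spots) or the largest difference between 60 and 30 min (2 spots). A gene list or marker check was not made, since spots were not matched to genes. Alternatives changed the bounds, the replicates required, the scaling, the denominator, the handling of dim spots, the replicate block, the filter and the variance model, and left out each replicate.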

Additional observations from a re-analysis of the deposited data

How the results depend on the processing

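The number of spots chosen was 34 with the titles in place of the descriptions for the RNAp ChIP times (15 shared with the 65), 121 with bounds of -0.8 and 0.4, 32 with bounds of -1.0 and 0.2, and 56 to 86 with 1 replicate left out. It stayed within 1.5 times 65 under the other settings: 64 by quantile normalization (51 shared), 73 with a mean denominator (38 shared), 70 with 5 added to each intensity (45 shared), 69 by the median over replicates (35 shared), 53 with all 3 replicates required and 48 without the dimmest spots. The last 2, and the removal of block medians (56 spots, 28 shared), each give fewer spots.

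Of the 3 RNAp ChIP calls at 60 min, 1 was left with replicate number as a block, 0 with a mean denominator and 0 to 3 with 1 replicate left out. Deviations of same-numbered samples correlated at 0.542, 0.134 and 0.173 between 0 and 30 min in GRO, the first of them on a shared filter, and between -0.346 and 0.123 in the other comparisons. The numbers were therefore taken as pairs only for the run-on interval of 0 to 30 min, where 25 spots rather than 26 reached -0.9, and not for the contrast at 60 min. The run-on calls were 3 rather than 0 with the filter as a random block, and 0 to 1 with 1 replicate left out, as were those of the difference between assays, which stayed at 0 with the replicate block. The median contrast at 60 min was 0.053 rather than 0.10 in RNAp ChIP with block medians removed, and -0.071 rather than 0.08 in run-on with a mean denominator. With 1 replicate left out it was 0.072 to 0.14 in RNAp ChIP and 0.0016 to 0.085 in run-on. The change from 0 to 30 min in the left-out replicate had medians of -0.89 to -0.19 in RNAp ChIP and -0.21 to -0.0032 in run-on. The cause of these differences was not tested. The removal of position and array column medians and the paired interval were chosen after seeing the data.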
